A study of Mus musculus with 8 samples.

Results

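Tumour necrosis factor (TNF) superfamily and NF-kB genes were examined in myeloid cells from the lungs of tumour-bearing mice. All gene symbols starting with Tnf, Nfkb, Rel, Traf or Birc were taken, together with Ikbke, and Cd40 was left out. The rule gave 27 of the 754 genes on a NanoString nCounter panel, which counts barcoded probes hybridised to RNA and needs no amplification. By role these were 4 ligands, 8 receptors, 6 TRAF or TNF-induced proteins, 1 IkB kinase-related gene, 1 NF-kB subunit gene, 4 genes grouped as inhibitors and 3 members of the inhibitor of apoptosis (IAP) family. The inhibitor group was set by symbol, as Tnfaip3 and all symbols starting with Nfkbi. No symbol starting with Rel was among the genes analysed here.

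Groups of Balb/c mice, 24 animals in all, had been grafted with 4T1, a metastatic mammary tumour cell line of the same strain. The DSHN group received DSHN, which activates the nuclear receptor NR0B2, and the DMSO group received DMSO as placebo. Both groups are labelled with a dose of 10 mg/kg, given daily for 7 days from 10 days after the graft. Each of the 4 DSHN and 4 DMSO samples is a pool of lungs from 3 mice, so differences between animals within a pool are not seen. The age of the mice was not given in the sources used here, and every animal carried the graft, so there is no tumour-free group. Cells were collected with beads against CD11b and CD11c and are labelled as dendritic cells.

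Ligands of the TNF superfamily bind matching receptors, which recruit TRAF adaptors and IAP ubiquitin ligases. These signals lead to loss of the IkB inhibitors, which hold NF-kB in the cytoplasm, and NF-kB then enters the nucleus. Among its target genes are those of its own inhibitors, including Nfkbia and Tnfaip3, which end the response. In macrophages, neutrophils and dendritic cells this pathway is a main switch of inflammatory gene expression.

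Sample depth was uneven. Recovered counts summed over all genes were 123700 in DSHN 1 and 533100 to 617600 in the other DSHN samples, against 598000 to 923800 in DMSO samples. The spike-in controls averaged 563 counts in DMSO 1 (geometric mean), against 3281 to 6392 in the other samples. Values below are therefore log2 values scaled to the mean of 4 housekeeping genes (Oaz1, Ppia, Rpl19, Tubb5). TNF superfamily, NF-kB and pathway differences that turn or move over 1.5 times without DSHN 1 and DMSO 1 are also given without both. On the deposited scale these 4 genes averaged 10.01 ± 1.44 in DSHN and 11.91 ± 1.03 in DMSO samples (SD, n = 4 each), a shift of -1.90 (two-sided exact permutation test, p = 0.0286, which is the smallest possible with 70 assignments). The shift was -1.19 without DSHN 1 (exact p = 0.0571), -1.41 without DMSO 1 (exact p = 0.114) and -0.70 without both (exact p = 0.1, the smallest possible with 3 against 3). The deposited values carry a spike-in factor per sample, 6.84 in DMSO 1 and 0.605 to 1.16 in the others, so the shift also holds this factor. In bulk samples such as these, fewer cells of a type and less RNA per cell cannot be told apart. Of 8 measured dendritic cell markers, Itgax and Cd83 were above background in all 8 samples and Xcr1 was in none. Of 8 neutrophil markers, 5 were above background in all samples (S100a8, S100a9, Csf3r, Cxcr2 and Ly6g), so the pools also held neutrophil transcripts. The neutrophil markers Mpo and Elane were above background in no sample. The summed linear level of the neutrophil markers was 68634 to 154834 in DSHN and 82606 to 221403 in DMSO samples, highest in DMSO 1. That of the dendritic cell markers was 2376 to 2612 in DSHN and 2293 to 2735 in DMSO samples. The brightest genes weigh most in such a sum, and the single dendritic cell markers were not level. With all 8 samples, those tested differed by 2.31 (Lamp3), 0.51 (Batf3), 0.41 (Itgax), 0.05 (Ccr7) and -0.20 (Cd83). Their adjusted p was 0.925 or more in limma. Without DSHN 1 and DMSO 1, Cd83 differed by -0.12. Macrophage and monocyte markers, 6 of 8 above background in all samples, summed to 9642 to 13944 in DSHN and 9397 to 20990 in DMSO samples, again highest in DMSO 1. Markers of other cells were near background, with 0 above it in all samples. Their sums in DSHN and DMSO samples were 37.2 to 180 and 15.4 to 30.0 for the 1 T cell marker, 62.1 to 372 and 35.9 to 53.4 for the 3 endothelial markers, and 143 to 171 and 100.3 to 138 for the 1 epithelial marker, higher in every DSHN sample. With no filter on low values, 65.5% of all 754 genes had a higher mean in DSHN. The T cell, endothelial and epithelial sums are near background and were not used as a measure of cell content. Their source was not tested. The B cell marker overlapped, at 67.4 to 134 in DSHN and 62.2 to 87.3 in DMSO samples, and 0 of the NK cell markers listed were among the genes analysed here. The part of these cell types in the differences below was not tested.

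No TNF superfamily or NF-kB gene passed the test for a difference between DSHN and DMSO samples. Of the 27 genes, 22 were bright enough to be tested, and 0 passed the threshold (limma, Benjamini-Hochberg adjusted over 554 genes, lowest adjusted p = 0.925), as did 0% of all genes tested. At an unadjusted p under 0.05 there were 0 of the 22, against 3.61% of all genes tested (20 of 554), 3.07% being higher and 0.542% lower in DSHN. No tested member separated the groups without overlap, while 2.53% of all genes did so with DSHN higher and 0.722% with DSHN lower. With 4 against 4, an exact permutation test per gene gives a p under 0.05 only at such separation, so it called 18 of 554 genes before adjustment, 0 of them members, and 0 after it. A higher mean in DSHN was found for 9 of the 22 and a lower mean for 13, where 53.4% of all genes were higher. The median difference of the 22 was -0.07 on the log2 scale, and that of all genes tested was 0.03. Without DSHN 1 and DMSO 1, 16 of the 22 had a higher and 6 a lower mean, and the median was 0.08, against 59.6% higher and a median of 0.06 over all genes. The 95% intervals of all 22 differences included 0, with half-widths of 0.44 (Tnfrsf12a) to 1.61 (Tnfsf9) and a median of 0.66. These intervals are for 1 gene at a time, without adjustment.

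**Figure D1:**
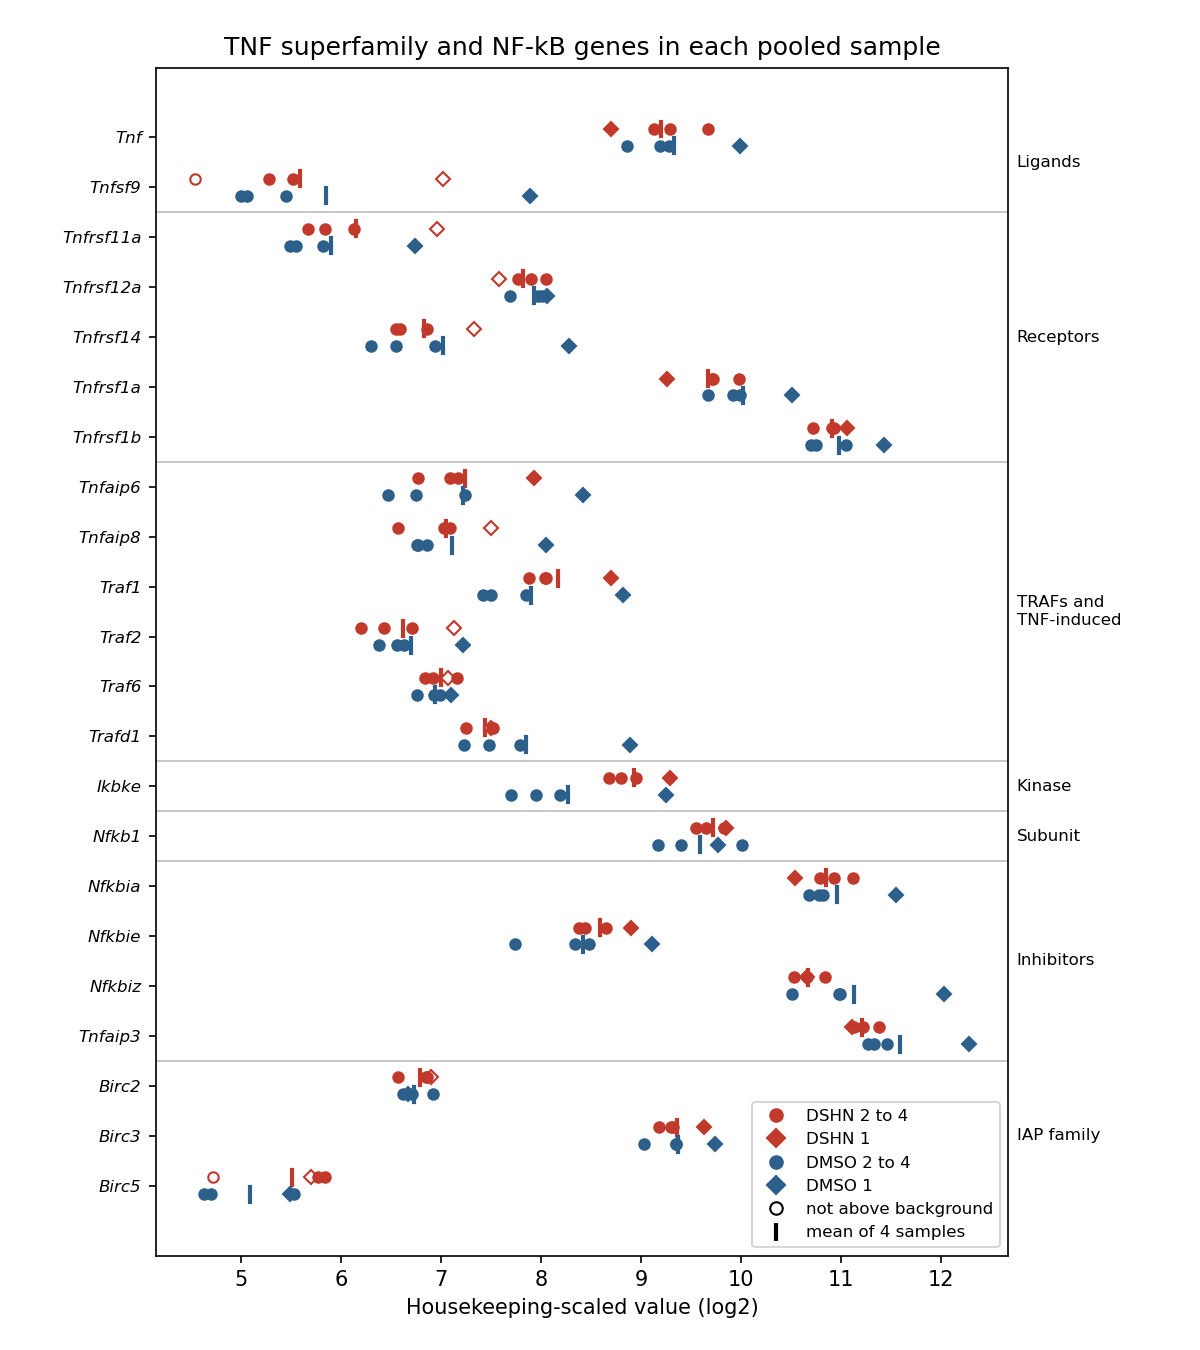
Housekeeping-scaled log2 value of each of the 22 tested genes (rows, by role) in 4 DSHN pools (red) and 4 DMSO pools (blue); diamonds mark replicate 1 of each group, open symbols values not above background, and vertical bars group means. The groups overlap for every gene shown, and DMSO 1 is the highest DMSO value for 19 of the 22.

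Among the ligands, Tnf was readily measured. Tnf, the founding cytokine of the family, was at 8.70, 9.13, 9.29 and 9.67 (log2) in DSHN 1 to 4, against 9.99, 9.28, 8.86 and 9.19 in DMSO 1 to 4. The lowest value was in DSHN 1 and the highest in DMSO 1, with the other samples interleaved. Its difference was -0.13 ± 0.29 (log2, SE; 95% interval -0.79 to 0.53), and it was 0.26 (-0.19 to 0.70) without DSHN 1 and DMSO 1. Tnfsf9, a costimulatory ligand for T cells, was above background in 2 of 4 DSHN and 4 of 4 DMSO samples. It spanned 4.54 to 7.02 in DSHN and 5.0 to 7.89 in DMSO samples, the upper end in each group being replicate 1. The difference of Tnfsf9 was -0.26 (95% interval -1.87 to 1.35), and -0.05 without both of these samples. In recovered counts, Tnfsf9 had 25, 26, 34 and 42 in DSHN 1 to 4 and 184, 49, 54 and 36 in DMSO 1 to 4. Tnfsf10, the apoptosis-inducing ligand TRAIL, and Tnfsf4, another costimulatory ligand, were above background in 0 samples and were not tested. Tnfsf10 had 13 to 22 counts in DSHN and 11 to 24 in DMSO samples, and Tnfsf4 had 12 to 17 in DSHN and 7 to 18 in DMSO samples.

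The receptors for TNF itself were above background in all 8 samples. Tnfrsf1a, the death-domain receptor found on most cells, was at 9.26, 9.72, 9.98 and 9.71 in DSHN 1 to 4, against 10.51, 9.92, 9.99 and 9.67 in DMSO 1 to 4. Replicates 2 to 4 of each group covered nearly the same range, with DSHN 1 below and DMSO 1 above it. The difference of Tnfrsf1a was -0.35 ± 0.24 (log2, SE; 95% interval -0.90 to 0.19), and -0.05 without DSHN 1 and DMSO 1. Tnfrsf1b, the TNF receptor without a death domain, was at 11.06, 10.91, 10.93 and 10.72 in DSHN 1 to 4, against 11.43, 11.05, 10.70 and 10.75 in DMSO 1 to 4. Its spread was 0.14 in DSHN and 0.34 in DMSO samples (SD, n = 4 each), wider than its difference of -0.08 ± 0.22, which was 0.02 without DSHN 1 and DMSO 1.

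Of the other receptors, Tnfrsf12a, which binds the ligand TWEAK, was at 7.58, 7.77, 7.90 and 8.05 in DSHN 1 to 4, against 8.06, 7.97, 7.69 and 8.01 in DMSO 1 to 4. Its interval was among the narrower ones, with a difference of -0.11 (95% interval -0.55 to 0.34), and 0.02 without DSHN 1 and DMSO 1. Tnfrsf11a, the receptor RANK, was at 6.96, 5.67, 5.84 and 6.13 in DSHN 1 to 4, against 6.74, 5.49, 5.55 and 5.82 in DMSO 1 to 4. Replicate 1 was the highest of each group, and the difference was 0.25 (-0.62 to 1.12). Tnfrsf14, which binds the ligand LIGHT, spanned 6.55 to 7.33 in DSHN and 6.30 to 8.28 in DMSO samples, with a difference of -0.18 (-1.12 to 0.75), and 0.07 without DSHN 1 and DMSO 1. DSHN 1 lay under background for Tnfrsf11a, Tnfrsf12a and Tnfrsf14, at 24, 37 and 31 counts. Tnfrsf4, Tnfrsf8 and Tnfrsf9, receptors best known on activated lymphocytes, were above background in 0 of the 8 samples and were not tested. Their recovered counts were 6 to 19 in DSHN and 8 to 12 in DMSO samples for Tnfrsf4, 7 to 20 in DSHN and 10 to 14 in DMSO samples for Tnfrsf8, and 7 to 13 in DSHN and 4 to 18 in DMSO samples for Tnfrsf9. At these counts a difference between the groups could not be measured.

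The TRAF genes encode the adaptors that link receptors to kinases, and of the 6 TRAF or TNF-induced genes 3 had a higher and 3 a lower mean in DSHN. Traf1, an adaptor whose own gene is an NF-kB target, was at 8.70, 7.88, 8.04 and 8.05 in DSHN 1 to 4, against 8.82, 7.85, 7.42 and 7.50 in DMSO 1 to 4. DSHN 1 and DMSO 1 were both high, and among replicates 2 to 4 all DSHN values lay above all DMSO values. The difference of Traf1 was 0.27 ± 0.34 (log2, SE; 95% interval -0.48 to 1.02) with all samples and 0.40 (-0.02 to 0.82) without DSHN 1 and DMSO 1. Traf6, the adaptor of Toll-like and interleukin 1 receptors, was nearly level at 6.84 to 7.16 in DSHN and 6.76 to 7.10 in DMSO samples, with a difference of 0.05 (-0.39 to 0.50), and 0.08 without DSHN 1 and DMSO 1. Traf2, which couples TNF receptors to IAP proteins, spanned 6.20 to 7.13 in DSHN and 6.38 to 7.22 in DMSO samples, with a difference of -0.08 (-0.72 to 0.56).

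Trafd1, a zinc finger protein that restrains innate signalling, was at 7.50, 7.51, 7.25 and 7.52 in DSHN 1 to 4, against 8.89, 7.79, 7.23 and 7.48 in DMSO 1 to 4. Its difference was -0.40 ± 0.34, and -0.07 without DSHN 1 and DMSO 1, DMSO 1 being the only sample above 8. Tnfaip6, a secreted hyaluronan-binding protein induced by TNF, was at 7.93, 6.77, 7.17 and 7.09 in DSHN 1 to 4, against 8.42, 6.75, 7.24 and 6.47 in DMSO 1 to 4, with a difference of 0.02 (95% interval -0.94 to 0.98). Replicate 1 was again the highest of each group, and without both the difference was 0.19. Tnfaip8, a regulator of cell death, spanned 6.57 to 7.50 in DSHN and 6.76 to 8.05 in DMSO samples, with a difference of -0.06 (-0.83 to 0.70), and 0.10 without DSHN 1 and DMSO 1. In DSHN 1, Traf2, Traf6, Trafd1 and Tnfaip8 lay under background, at 27, 26, 35 and 35 counts.

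Ikbke had the largest difference of the 22 tested genes. It encodes IKK epsilon, a kinase related to the IkB kinases that acts on interferon regulatory factors and on NF-kB. Ikbke was at 9.29, 8.80, 8.68 and 8.95 in DSHN 1 to 4, against 9.25, 8.19, 7.95 and 7.70 in DMSO 1 to 4. All DSHN values were above those of DMSO 2, 3 and 4, and DMSO 1 lay within the upper end of the DSHN range. The difference was 0.66 ± 0.33 (log2, SE; 95% interval -0.08 to 1.40), a ratio of 1.58, with an adjusted p of 0.925 in limma and an exact permutation p of 0.114 before adjustment. Without DSHN 1 and DMSO 1 it was 0.87 (0.45 to 1.28), with an unadjusted limma p of 0.00117 and an adjusted p of 0.323. In that comparison Ikbke was the 1 member at an unadjusted p under 0.05, where 5.05% of all genes were, 4.69% higher in DSHN, and 0 genes passed after adjustment. Ikbke and Traf1 were the 2 members whose groups did not overlap there, both higher in DSHN, as were 7.04% of all genes tested, while 1.99% were lower without overlap. With DMSO 1 alone left out the difference of Ikbke was 0.98, and the other single-sample omissions gave 0.47 to 0.74. On the deposited scale, which carries the shift of the housekeeping genes, Ikbke was lower in DSHN by -1.24. Over all settings tried, its adjusted p was between 0.265 and 1. The 0.265 was on the deposited scale in limma, where Ikbke was lower in DSHN.

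**Figure D2:**
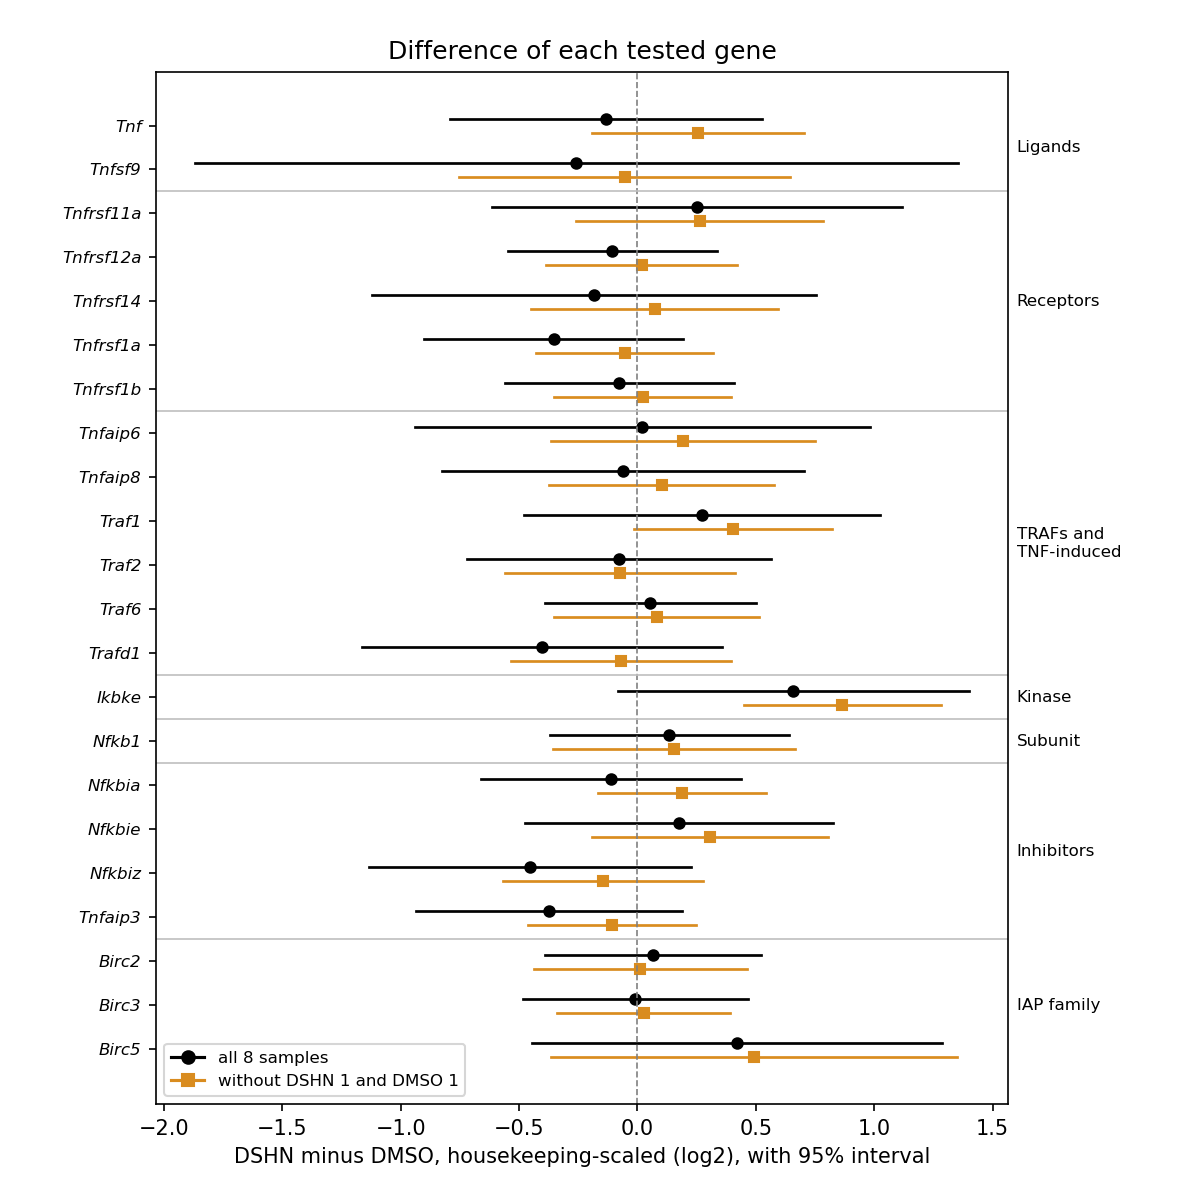
DSHN minus DMSO difference (log2, housekeeping-scaled) with its 95% interval for each of the 22 tested genes, with all 8 samples (black) and without DSHN 1 and DMSO 1 (orange). Every black interval includes 0, and the orange interval of Ikbke runs from 0.45 to 1.28.

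Nfkb1, the gene of the p105 precursor and p50 subunit of NF-kB, was at 9.85, 9.65, 9.55 and 9.83 in DSHN 1 to 4, against 9.77, 10.01, 9.17 and 9.40 in DMSO 1 to 4. The DSHN values lay inside the DMSO range. Its difference was 0.13 ± 0.23 (log2, SE; 95% interval -0.37 to 0.64).

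Inhibitors that NF-kB induces as feedback are shown with their promoters where the RefSeq table has one, because their transcripts are a common readout of NF-kB activity. The first 3 sequences below are the 250 bases before the annotated start of Nfkbia, Nfkbie and Tnfaip3, and the last is that of Ikbke, the gene with the largest difference. Nfkbiz, placed with the inhibitors by its symbol, had no entry in that table. The sequences are from RefSeq on GRCm38.p6, 5′ to 3′ in the direction of the gene. Capitals mark matches, on either strand, to GGG and TTCC with any 3 bases between them, a form of the kB site bound by NF-kB.
Nfkbia, chr12:55492648-55492897, minus strand: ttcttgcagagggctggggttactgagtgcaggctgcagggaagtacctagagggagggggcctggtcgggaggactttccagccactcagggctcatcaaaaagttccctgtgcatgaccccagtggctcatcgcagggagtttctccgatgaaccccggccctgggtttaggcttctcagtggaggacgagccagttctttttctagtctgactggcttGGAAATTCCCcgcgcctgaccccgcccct
Nfkbie, chr17:45555450-45555699, plus strand: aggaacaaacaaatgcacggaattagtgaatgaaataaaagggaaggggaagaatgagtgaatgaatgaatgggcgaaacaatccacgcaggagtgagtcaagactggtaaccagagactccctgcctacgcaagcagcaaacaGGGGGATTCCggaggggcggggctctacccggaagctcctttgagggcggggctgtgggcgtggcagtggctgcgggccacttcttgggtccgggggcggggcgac
Tnfaip3, chr10:19015411-19015660, minus strand: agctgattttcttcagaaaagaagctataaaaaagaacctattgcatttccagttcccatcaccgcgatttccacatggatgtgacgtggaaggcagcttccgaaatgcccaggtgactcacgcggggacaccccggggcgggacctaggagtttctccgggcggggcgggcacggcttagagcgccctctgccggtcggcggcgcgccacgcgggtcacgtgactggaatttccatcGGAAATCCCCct
Ikbke, chr1:131279564-131279813, minus strand: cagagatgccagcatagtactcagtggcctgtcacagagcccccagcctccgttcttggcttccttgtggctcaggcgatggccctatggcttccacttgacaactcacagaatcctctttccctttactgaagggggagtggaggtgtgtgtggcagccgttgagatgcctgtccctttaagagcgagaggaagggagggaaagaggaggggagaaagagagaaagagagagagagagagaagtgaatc

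The match began 29 bases before the start of Nfkbia, 106 before that of Nfkbie and 12 before that of Tnfaip3 (a second start of Tnfaip3 had one at 90), and there was none in the Ikbke window. Over the members, 22 of the 27 symbols had a promoter in the RefSeq table, and 5 of these (22.7%) had a match in at least 1 window, the remaining ones being Birc5 and Tnfrsf9. Over all genes in that table the share was 5.31% (1434 of 27025). A match describes the letters of the window, was searched for with this motif alone, and does not show binding.

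Of the 4 genes grouped as inhibitors by symbol, 1 had a higher and 3 a lower mean in DSHN. Nfkbia, which encodes IkB alpha, was at 10.54, 10.79, 10.93 and 11.12 in DSHN 1 to 4, against 11.55, 10.82, 10.78 and 10.68 in DMSO 1 to 4. Its difference was -0.11 ± 0.25 (95% interval -0.66 to 0.44) and turned to 0.19 (-0.17 to 0.54) without DSHN 1 and DMSO 1. Tnfaip3, the ubiquitin-editing enzyme known as A20, was at 11.11, 11.13, 11.22 and 11.38 in DSHN 1 to 4, against 12.28, 11.46, 11.33 and 11.27 in DMSO 1 to 4. Only DSHN 4 reached into the DMSO range, and DMSO 1 stood above the other DMSO samples by 0.93. The difference of Tnfaip3 was -0.37 ± 0.25 (-0.94 to 0.19), and -0.11 (-0.46 to 0.25) without DSHN 1 and DMSO 1.

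Nfkbiz encodes IkB zeta, a nuclear family member that acts on a subset of NF-kB targets, among them interleukin 6. It had the most negative difference of the 22, at -0.45 ± 0.30 (log2, SE; 95% interval -1.14 to 0.23). Nfkbiz was at 10.66, 10.53, 10.66 and 10.84 in DSHN 1 to 4, against 12.03, 10.98, 10.99 and 10.51 in DMSO 1 to 4. The DSHN samples had an SD of 0.13 and the DMSO samples one of 0.64 (n = 4 each), with DMSO 1 above the mean of the other DMSO samples by 1.20 and DMSO 4 below every DSHN sample. Without DSHN 1 and DMSO 1 the difference was -0.15 (-0.57 to 0.27). Nfkbie, which encodes IkB epsilon, spanned 8.38 to 8.90 in DSHN and 7.74 to 9.11 in DMSO samples, with a difference of 0.18 (-0.48 to 0.83), and 0.31 without DSHN 1 and DMSO 1.

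The IAP family genes Birc2 and Birc3 encode the ubiquitin ligases that act next to TRAF proteins at TNF receptors. Birc2 was at 6.90, 6.85, 6.86 and 6.57 in DSHN 1 to 4, against 6.67, 6.92, 6.62 and 6.71 in DMSO 1 to 4, with a difference of 0.07 ± 0.20 (log2, SE; 95% interval -0.39 to 0.52), and 0.01 without DSHN 1 and DMSO 1. Birc3 was at 9.63, 9.32, 9.18 and 9.30 in DSHN 1 to 4, against 9.74, 9.35, 9.35 and 9.03 in DMSO 1 to 4, with a difference of -0.01 ± 0.21 (-0.48 to 0.47), and 0.03 without DSHN 1 and DMSO 1. Both genes overlapped almost fully between the groups, and the Birc2 count of 23 in DSHN 1 was under background. Birc5, which encodes survivin and is expressed in dividing cells, was above background in 2 of 4 DSHN and 4 of 4 DMSO samples. It spanned 4.72 to 5.84 in DSHN and 4.63 to 5.53 in DMSO samples, with a difference of 0.42 (-0.45 to 1.29).

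The 22 genes had a wider spread among DMSO than among DSHN pools, and DMSO 1 was high for most of them. Their median SD was 0.25 in DSHN and 0.48 in DMSO samples (log2, n = 4 each), against 0.36 and 0.44 for all genes tested, and it was 0.16 in DSHN and 0.20 in DMSO samples without replicate 1 of each (n = 3 each). DMSO 1 held the highest of all 8 values for 16 of the 22, as it did for 39.9% of all genes tested. It exceeded the other DMSO samples for 19 of the 22 and for 57.6% of all genes tested, and its median excess over their mean was 0.90 for the 22 and 0.39 for all genes tested. The exceptions were Nfkb1, Birc2 and Birc5. DSHN 1 was the highest DSHN sample for 13 of the 22 and the lowest for 5 (59.1% and 22.7%), against 57.6% highest and 24.5% lowest over all genes tested. The 5 were Tnf, Tnfrsf12a, Tnfrsf1a, Nfkbia and Tnfaip3. Of the 13, Tnfsf9, Tnfrsf11a, Tnfrsf14, Tnfaip8, Traf2 and Birc2 were under background in DSHN 1, so their rank there is not a measured level. In DSHN 1 only 12 of the 27 members were above background, against 21 to 22 in every other sample. With all samples, 12 members were above background throughout, of which 5 had a higher and 7 a lower mean in DSHN, with a median of -0.04.

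**Figure D3:**
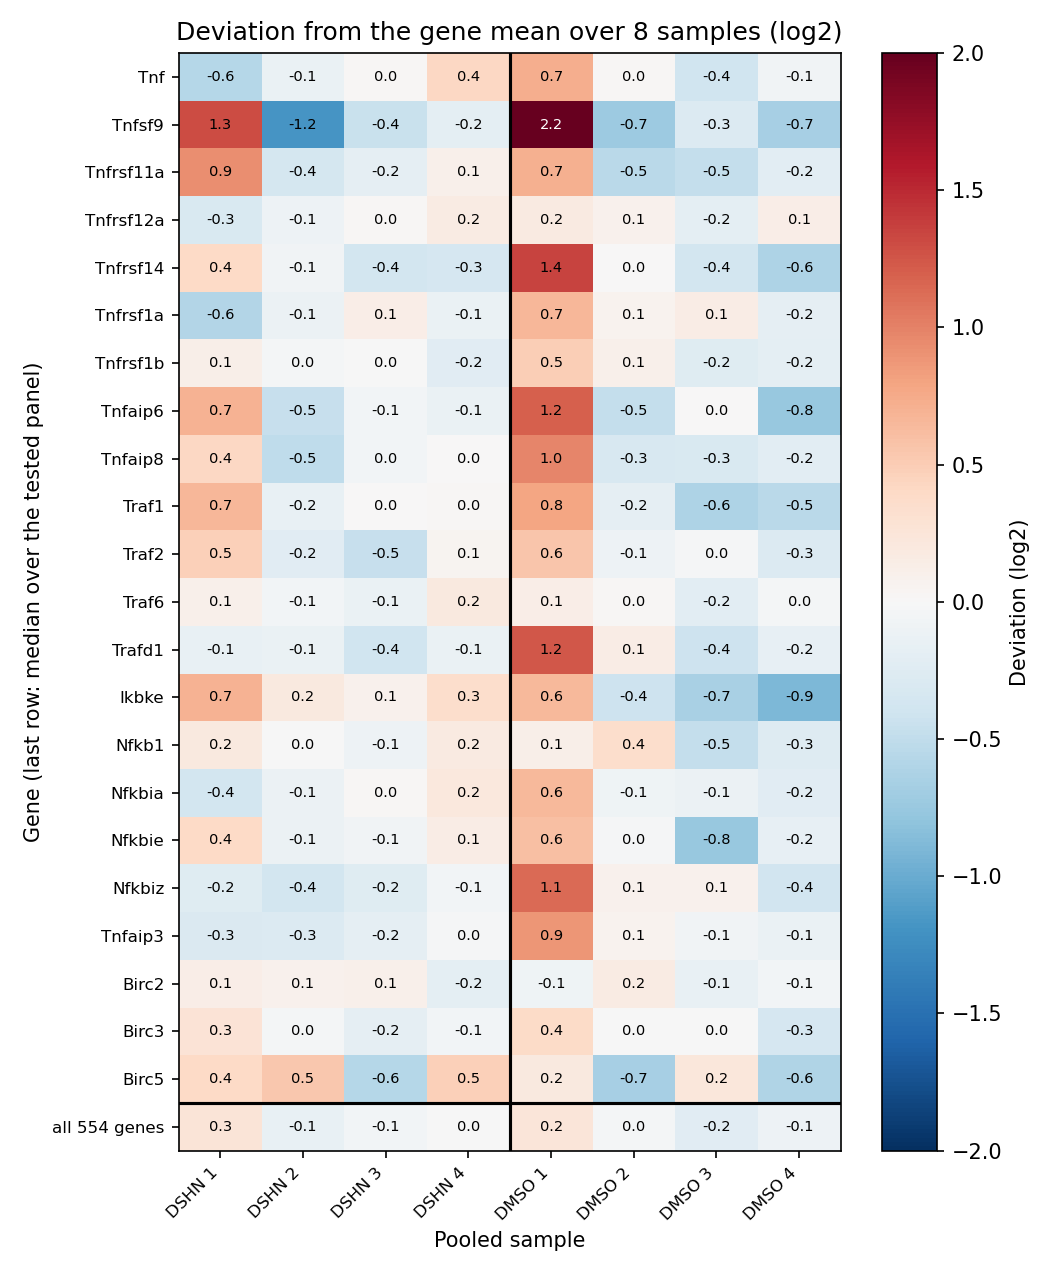
Deviation of each gene from its own mean over the 8 pools (log2, housekeeping-scaled), DSHN pools on the left and DMSO pools on the right; the last row is the median deviation over the 554 tested genes. The column of DMSO 1 is high for most genes, with a median deviation of 0.66 against 0.24 for the panel.

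No other gene of the pathway passed the threshold. Of 29 genes listed for upstream and death signalling, 12 were measured and 7 tested, of which 3 had a higher and 4 a lower mean in DSHN, a median of -0.22 and 0 past the threshold, and the median was -0.01 without DSHN 1 and DMSO 1. Over all genes tested, 53.4% were higher, and the median was 0.03 with all samples and 0.06 without both. Map3k14, the kinase of the non-canonical NF-kB pathway, differed by 0.52 ± 0.36 (log2, SE), and by 0.22 without DSHN 1 and DMSO 1. Its highest value, 6.90 in DSHN 1, was under background there. Ltb, a membrane-bound ligand of the TNF superfamily, differed by 0.28 ± 0.30, and by 0.16 without both samples. Malt1, a protease of the CARD signalling complex, differed by -0.22 ± 0.24, and by -0.02 without both samples. Fas, a death receptor, differed by -0.32 ± 0.37, and by -0.01 without both samples. Among 31 genes listed as known NF-kB targets, 27 were measured and 26 tested, with 9 higher, 17 lower, a median of -0.20 and 0 past the threshold in limma. The share higher over all genes tested was 53.4%, with a median of 0.03. Without DSHN 1 and DMSO 1, 23 targets had a higher and 3 a lower mean, and their median was 0.25, against 59.6% higher over all genes. In DMSO 1 the targets were above all other DMSO samples for 25 of the 26, with a median excess of 1.40. For all genes tested these were 57.6% and 0.39. Cxcl2, a neutrophil chemoattractant, differed by -0.57 ± 0.38 with all samples and by -0.02 without DSHN 1 and DMSO 1. Cxcl1, another such chemoattractant, differed by -0.60 ± 0.48 with all samples and by 0.14 without both. Bcl2, which blocks cell death, differed by 0.73 ± 0.44 with all samples and by 0.20 without DSHN 1 and DMSO 1. Bcl2 was above background in 3 of 4 samples of each group, and its highest value, 7.37 in DSHN 1, was under background there. The 1 of 26 targets at an unadjusted p under 0.05 (3.61% of all genes) was Csf2, encoding the growth factor GM-CSF, at 1.51 ± 0.37 with an adjusted p of 0.925, which was above background in 3 of 4 DSHN and 2 of 4 DMSO samples. Csf2 was at 6.77, 5.59, 5.66 and 5.99 in DSHN 1 to 4, against 4.89, 4.19, 4.70 and 4.21 in DMSO 1 to 4. Its groups did not overlap, as for 2.53% of all genes with DSHN higher. The highest Csf2 value of each group, 6.77 in DSHN 1 and 4.89 in DMSO 1, was under background there. Without DSHN 1 and DMSO 1, 3 targets were at that p before adjustment (5.05% of all genes) and 0 after it in limma, namely Csf2 (1.38), Nos2 (0.89), which makes nitric oxide, and Mmp9 (0.50), a matrix protease. The differences of Nos2 and Mmp9 with all samples were 0.90 ± 0.82 and 0.07 ± 0.46. Nos2 was above background in 2 of 4 DSHN and 1 of 4 DMSO samples. It was at 6.57 in DMSO 1, the DMSO sample above background, and at 3.77 to 3.98 in the other DMSO samples. The highest Nos2 value, 7.50 in DSHN 1, was under background there, and the other DSHN samples were at 4.36 to 5.10.

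**Figure D4:**
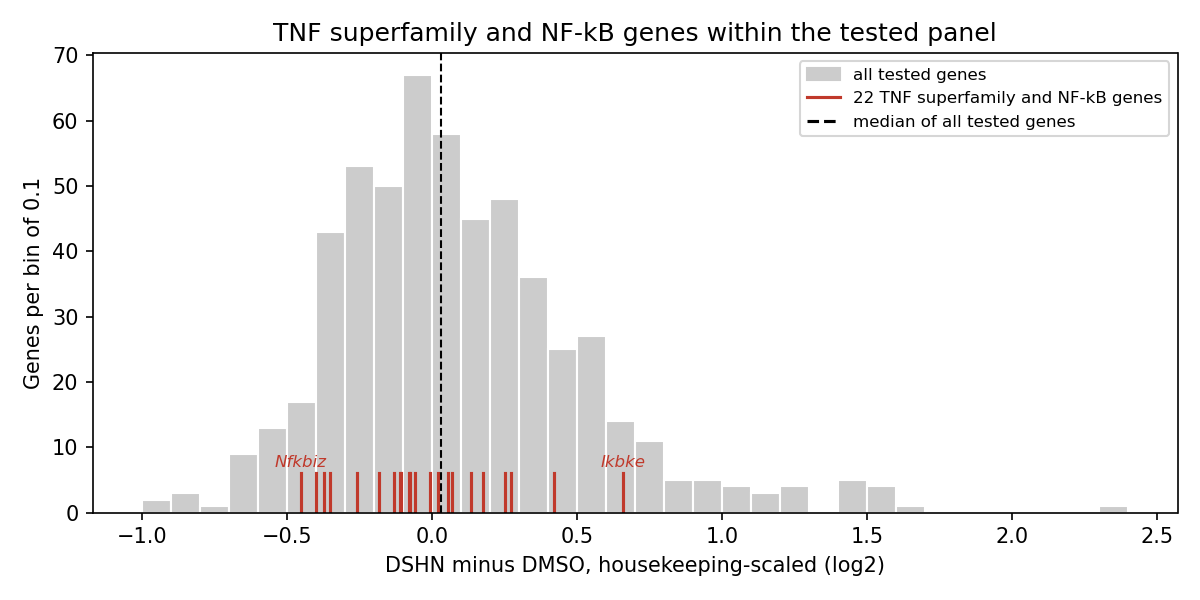
Number of genes per bin of DSHN minus DMSO difference (log2, housekeeping-scaled) over the 554 tested genes (grey), with the 22 TNF superfamily and NF-kB genes as red lines and the panel median of 0.03 as a dashed line. The 22 lie between -0.45 (Nfkbiz) and 0.66 (Ikbke), inside the range of the panel, -0.99 to 2.31.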

How the data were processed

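Gene expression was measured by NanoString nCounter in 8 pooled samples. The authors deposited log2 values for 768 probes (754 genes, 6 positive and 8 negative controls); the software behind them was not given in the sources used here. From the values, control rows are unscaled counts and gene rows carry a spike-in factor per sample, 0.605 to 6.84, and no housekeeping scaling. Counts were recovered by removing that factor, with low values within 0.0050 (log2) of whole counts; bright counts are known only to rounding. Background was set 2 SD above the negative controls' mean, 18.0 to 40.0 counts.

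The log2 values were scaled to Oaz1, Ppia, Rpl19 and Tubb5, which assumes that these did not respond to treatment. DSHN and DMSO were compared with limma 3.58.1 in R 4.3.3, with a variance trend and no covariates, on 554 genes at 20 or more in at least 4 samples, with Benjamini-Hochberg adjustment at 0.05. The code was tested on simulated data. The members, lists and tests were chosen with earlier results of these data known, and the promoter motif after the values were seen. Per-sample values were given, among genes above background in at least 3 samples of each group, for those at an unadjusted p under 0.05 or without overlap and, in each role, up to 3 of the highest level and 2 of the largest difference; in each pathway list the 4 genes of smallest p were named, and targets at an unadjusted p under 0.05. Replicates are pools of separate animals. Symbols were used as deposited. The housekeeping shift without samples was added after the values were seen. Other settings covered scaling, filters, background, variance model, permutation and samples left out. Pseudocounts did not apply. Count models were not run.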

Additional observations from a re-analysis of the deposited data

Results flagged for a closer look

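In 44 sets of 4 values (22 genes in DSHN and in DMSO), 6 had a sample far from the other samples of its group, where chance gives about 1 in 20 (2.2 of 44). In DMSO 1, Tnfsf9 was at 7.89 (other DMSO samples 5.0 to 5.45), Tnfaip8 at 8.05 (6.76 to 6.86) and Nfkbia at 11.55 (10.68 to 10.82), all above the rest. In DSHN 3, Trafd1 was at 7.25 (other DSHN samples 7.50 to 7.52) and Birc5 at 4.72 (5.70 to 5.84), both below the rest, and Birc5 was under background there. Birc2 in DSHN 4 was at 6.57 (6.85 to 6.90). The DSHN 1 values of Trafd1, Birc5 and Birc2, which are part of these DSHN ranges, were under background. DMSO 1 is the sample with low spike-in counts, and the part of this in its values was not tested.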

How the results depend on the processing

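No gene of the panel passed the threshold under any of the 19 settings tried, and of 308 differences of the 22 genes that could turn 250 kept their direction; another 100 (filters, replicate block, variance model, permutation) are the same mean difference by construction. The deposited scale moves every gene by -1.90, leaving out Tubb5 by 0.17 and median centring by 0.025; the cause of other changes was not tested. As deposited, 196 genes and 7 members were at an unadjusted p under 0.05, 0 members (0.181% of all genes) were higher in DSHN, and the median over members was -1.97; those that turned were Tnfrsf11a (-1.65), Tnfaip6 (-1.88), Traf1 (-1.63), Traf6 (-1.85), Ikbke (-1.24), Nfkb1 (-1.77), Nfkbie (-1.73), Birc2 (-1.84) and Birc5 (-1.48). The count of genes at that p was 40 with no filter, 4 among genes above background in all samples (5 members and 38.1% of genes higher), 12 with background subtracted (4 members and 29.6% higher) and 11 with a replicate block. The replicate numbers share no stated animal or batch (correlations of same-numbered deviations -0.18, 0.14, 0.02 and -0.29). Ikbke was the 1 member at an unadjusted p under 0.05 after median centring, after quantile normalization and without Tubb5. It was also the 1 such member with the replicate block and without DSHN 1 and DMSO 1. Of the 554 genes tested, 17 were at that p after median centring, 16 after quantile normalization and 25 without Tubb5. With the replicate block there were 11, and without DSHN 1 and DMSO 1 there were 28. After median centring Birc3 turned (0.016). After quantile normalization Tnfrsf11a (-0.019), Tnfrsf1b (0.14), Traf6 (-0.10), Nfkbia (0.10), Birc2 (-0.13), Birc3 (0.13) and Birc5 (-0.13) did. Without Tubb5 in the scaling, 16 members (72.2% of all genes) were higher, and Tnf (0.04), Tnfrsf12a (0.065), Tnfrsf1b (0.10), Tnfaip8 (0.11), Traf2 (0.092), Nfkbia (0.06) and Birc3 (0.16) turned. With background subtracted, Tnfrsf11a (-0.16), Tnfaip6 (-0.12), Traf6 (-0.30), Birc2 (-0.37) and Birc5 (-0.34) turned. Without DSHN 1 and DMSO 1, 16 members (59.6% of all genes) were higher, and Tnf (0.26), Tnfrsf12a (0.019), Tnfrsf14 (0.072), Tnfrsf1b (0.022), Tnfaip8 (0.10), Nfkbia (0.19) and Birc3 (0.026) turned. Leaving out each sample in turn gave 11 to 28 genes and 0 to 2 members (Ikbke and Traf1, without DMSO 1) at an unadjusted p under 0.05, 6 (without DMSO 3, 47.5% of all genes) to 17 (without DMSO 1, 69.3%) members higher, and a median of -0.15 to 0.11. The ranges that crossed 0 were -0.29 to 0.089 (Tnf), -0.73 to 0.42 (Tnfsf9), -0.018 to 0.53 (Tnfrsf11a), -0.42 to 0.24 (Tnfrsf14), -0.17 to 0.073 (Tnfrsf1b), -0.23 to 0.42 (Tnfaip6), -0.21 to 0.25 (Tnfaip8), -0.25 to 0.10 (Traf2), -0.0075 to 0.11 (Traf6), -0.005 to 0.27 (Nfkb1), -0.20 to 0.087 (Nfkbia), -0.049 to 0.41 (Nfkbie) and -0.12 to 0.12 (Birc3). Depth limits DSHN 1 most, where 10 of the 22 tested genes were under background.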
